A study of Mus musculus with 8 samples.

Results

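Dendritic cells capture antigen and present it to T cells. The genes described here are used as markers of their subsets and were measured in whole 4T1 mammary tumors. The genes are Flt3, Zbtb46 and Itgax, shared by conventional dendritic cells, Xcr1, Clec9a and Batf3 for type 1 conventional dendritic cells (cDC1), Irf8 for cDC1 and plasmacytoid cells, Cd209a for type 2 conventional dendritic cells (cDC2), Siglech for plasmacytoid cells, and Fscn1 for mature, migratory cells. They were chosen by name and found by matching Ensembl identifiers to mouse symbols, which gave 10 of 25006 counted genes. All 10 passed the filter on low counts that left 15310 genes for testing.

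RNA sequencing was done on 8 libraries of tumors grown from 4T1, a mouse mammary carcinoma line of Balb/c origin that models triple-negative disease. The 4 groups had 2 libraries each. They were wild-type tumors in NSG mice, CD95 knockout tumors in NSG mice, wild-type tumors in Balb/c mice and CD95 knockout tumors in Balb/c mice. NSG mice lack mature T, B and NK cells, which Balb/c mice have. The hosts are also different strains, so strain and the lack of these cells cannot be told apart. Wild-type tumors came from the parental line and from a line that stably carries vCas9, knockout tumors came from CRISPR/Cas9 clones 54 and 69, and each line was grown in both hosts. Tumors grew in the fat pad for at most 20 days, and the age of the mice is not given. The knockouts were clones, which the labels do not say of the wild-type lines, so clonality and CD95 status cannot be told apart. Only the injected tumor cells carried the knockout, and every host animal kept its own CD95. The labels do not say whether a library held 1 tumor or several. The p-values therefore measure only the spread between these libraries, which the test estimated over all 4 groups together.

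Conventional dendritic cells arise from bone marrow precursors that need the receptor FLT3, and they split into cDC1, which cross-present antigen to CD8 T cells under the factors IRF8 and BATF3, and cDC2, which mainly prime CD4 T cells. Plasmacytoid dendritic cells secrete type I interferon. On maturation, conventional dendritic cells gain CCR7 and the actin-bundling protein fascin and leave for the lymph node. Several of these genes are also used outside dendritic cells: Itgax by macrophages and NK cells, Irf8 by B cells and monocytes, Batf3 by T cells, Zbtb46 by endothelium, and Fscn1 by carcinoma and stromal cells. The RNA came from whole tumors, in which more cells of a type and more RNA per cell cannot be told apart.

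Library totals ran from 8680070 to 19655945 counts, so that 3 counts corresponded to 0.159 to 0.321 CPM (counts scaled to library depth with TMM factors). The summed level of 7 T cell genes lay between 4.82 and 9.28 CPM in NSG hosts and between 308 and 380 CPM in Balb/c hosts. Fas, the gene of CD95, was at 33.9 and 22.6 CPM in wild-type and at 29.5 and 12.9 CPM in knockout tumors of NSG mice. Tumors of Balb/c mice had Fas at 51.6 and 46.9 CPM in wild-type and at 27.1 and 33.7 CPM in knockout tumors. Neither difference passed the test (edgeR adjusted p = 0.628 and 0.225). The shares of Fas counts from host cells and from an edited tumor gene were not measured. In every list of values below, the parental library comes before vCas9 and clone 54 before clone 69.

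The start of the lead gene of each subset is shown because these 4 genes had different patterns across the groups. Each window runs from 250 bases before the RefSeq start to 50 bases after it in GRCm38.p6, read 5′ to 3′ on the gene's strand. Capitals mark matches, on either strand, to the ETS core GGAAGT, bound by factors such as PU.1, and to the AP-1 site TGANTCA, bound by BATF family dimers. The windows are Xcr1 at chr9:123861980-123862279 on the minus strand, Cd209a at chr8:3748935-3749234 on the minus strand, Siglech at chr7:55767934-55768233 on the plus strand, and Fscn1 at chr5:142960105-142960404 on the plus strand.
Xcr1: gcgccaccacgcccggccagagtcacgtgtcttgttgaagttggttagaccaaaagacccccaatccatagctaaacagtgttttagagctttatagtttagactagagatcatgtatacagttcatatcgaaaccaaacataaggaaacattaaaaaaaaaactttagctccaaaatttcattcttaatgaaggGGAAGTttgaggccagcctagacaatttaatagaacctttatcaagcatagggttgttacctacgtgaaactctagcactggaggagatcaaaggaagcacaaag
Cd209a: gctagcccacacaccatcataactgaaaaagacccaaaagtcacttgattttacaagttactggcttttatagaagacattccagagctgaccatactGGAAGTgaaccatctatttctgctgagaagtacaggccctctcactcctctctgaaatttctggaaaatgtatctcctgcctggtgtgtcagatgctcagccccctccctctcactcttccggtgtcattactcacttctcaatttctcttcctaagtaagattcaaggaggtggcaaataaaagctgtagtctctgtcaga
Siglech: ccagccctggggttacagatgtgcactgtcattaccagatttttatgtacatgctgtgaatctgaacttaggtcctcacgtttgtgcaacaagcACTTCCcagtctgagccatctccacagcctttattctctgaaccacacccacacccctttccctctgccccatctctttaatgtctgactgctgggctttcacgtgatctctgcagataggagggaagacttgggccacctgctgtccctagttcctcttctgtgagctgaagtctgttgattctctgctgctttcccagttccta
Fscn1: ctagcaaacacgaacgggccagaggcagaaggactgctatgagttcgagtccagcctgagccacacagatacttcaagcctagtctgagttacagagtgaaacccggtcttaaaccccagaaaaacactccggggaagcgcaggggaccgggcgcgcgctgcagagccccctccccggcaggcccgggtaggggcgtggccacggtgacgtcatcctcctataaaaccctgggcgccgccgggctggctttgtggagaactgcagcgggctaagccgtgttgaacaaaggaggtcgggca
The Xcr1, Cd209a and Siglech windows each held 1 ETS core, and the Fscn1 window held neither motif. Over the 11 windows of the 10 genes (Irf8 has 2), 6 held the ETS core, against 23.8% of all 32851 mouse windows of this length. The AP-1 site was in 2 of the 11, those of Zbtb46 and Itgax, against 7.81% of all windows. A composite ETS-IRF element was in 1 of the 11, that of Cd209a, against 2.72% of all windows, and an interferon-stimulated element was in 0 of the 11, against 3.44%. These 2 elements and the E-box are not capitalised. The E-box CANNTG was in 9 of the 11 and in 72.3% of all. The motifs searched do not overlap each other in the printed windows, and a match is a description of letters, not a site of binding.

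**Figure D1:**
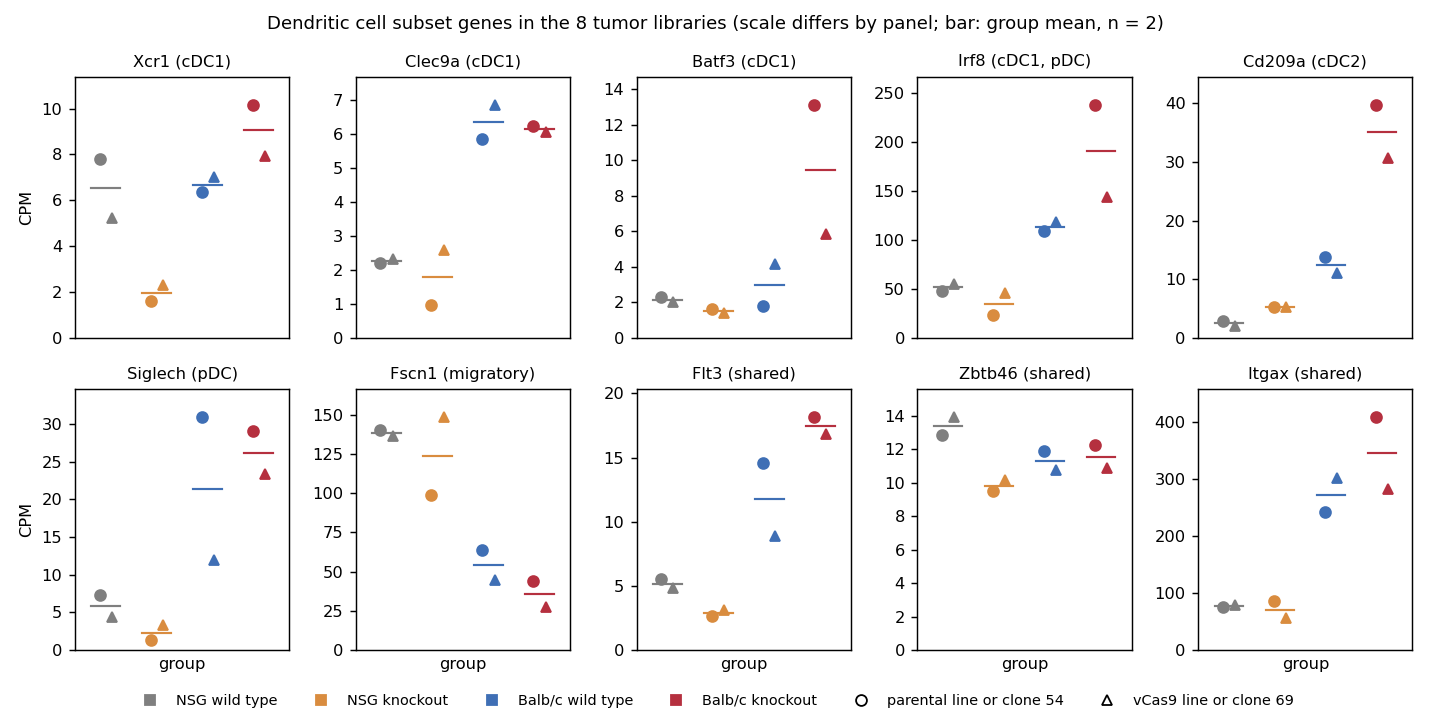
CPM (vertical axis from 0, scale differs by panel) of each dendritic cell gene in the 8 libraries, by group; points are libraries, circles the parental line or clone 54 and triangles vCas9 or clone 69, and bars are group means of 2. Cd209a and Itgax lie higher in all 4 Balb/c libraries than in all 4 NSG libraries, Fscn1 lies lower in them, and Xcr1 is lowest in the NSG knockout pair.

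Most, but not all, of the dendritic cell genes were at a higher level in Balb/c than in NSG tumors of the same CD95 status. In wild-type tumors 6 of the 10 genes were higher in Balb/c and 1 lower, where 15.3% of all genes tested were called higher, 16.2% lower and 31.5% in either direction. In knockout tumors 8 were higher and 1 lower, where 15.7% of all genes were called higher, 15.4% lower and 31.1% in either direction. Median log2 fold changes of the 10 genes were 1.16 and 2.38, against -0.08 and 0.02 over all genes tested. Cd209a, Siglech, Itgax, Flt3, Irf8 and Clec9a rose in both comparisons, Xcr1 and Batf3 in the knockout comparison, Fscn1 fell in both, and Zbtb46 passed neither. When the cell line was fitted as a block, the count in wild-type tumors went from 7 to 2, leaving Itgax (adjusted p = 0.0149) and Cd209a (adjusted p = 0.0153), against 13.5% of all genes. The 9 calls in knockout tumors stayed, against 18.8% of all genes. Leaving out the parental or the vCas9 library of NSG left 1 and 2 calls in wild-type tumors, against 5.45% and 8% of all genes. Leaving out the parental or the vCas9 library of Balb/c left 3 and 4, against 8.16% and 9.44%.

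Flt3, the growth factor receptor of dendritic cell precursors (chr5:147330741-147400489, minus strand, GRCm38 here and for the other genes), was at 5.54 and 4.80 CPM in wild-type and 2.68 and 3.08 CPM in knockout tumors of NSG mice, and at 14.6, 8.87, 18.1 and 16.9 CPM in the same lines in Balb/c mice. All 4 Balb/c libraries were above all 4 NSG libraries. The host difference was 1.18 ± 0.29 (log2 fold change ± SE, edgeR adjusted p = 0.0215) in wild-type and 2.60 ± 0.31 (adjusted p = 0.0012) in knockout tumors. The wild-type call was lost without the parental NSG (adjusted p = 0.0938), vCas9 NSG (0.122) or parental Balb/c library, where it was 0.77 (0.142). Its ligand gene Flt3l rose as well, by 1.61 ± 0.29 (adjusted p = 0.00793) and 1.97 ± 0.30 (adjusted p = 0.00272).

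Itgax encodes the integrin CD11c (chr7:128129547-128150657, plus strand). It was at 75.1 and 79.3 CPM in wild-type and 85.5 and 55.7 CPM in knockout tumors of NSG mice, and at 242, 302, 409 and 282 CPM in Balb/c mice. The hosts did not overlap. The log2 fold change was 1.82 ± 0.27 (edgeR adjusted p = 0.0045) in wild-type and 2.29 ± 0.28 (adjusted p = 0.00123) in knockout tumors. Without the parental NSG library the first call was lost (adjusted p = 0.0519).

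Zbtb46, a transcription factor of the conventional dendritic lineage (chr2:181387762-181459426, minus strand), stayed within a narrow range. It was at 12.9 and 13.9 CPM in wild-type and 9.52 and 10.1 CPM in knockout tumors of NSG mice, and at 11.9, 10.7, 12.3 and 10.9 CPM in Balb/c mice. The Balb/c libraries lay between the NSG wild-type and the NSG knockout libraries. Its host difference was -0.24 with a 95% interval from -0.72 to 0.23 in wild-type tumors (edgeR adjusted p = 0.381), and 0.24 with an interval from -0.24 to 0.71 in knockout tumors (adjusted p = 0.422).

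Among the cDC1 genes, Xcr1, the receptor for the chemokine XCL1 (chr9:123852315-123862029, minus strand), was at 7.83 and 5.22 CPM in wild-type and 1.61 and 2.29 CPM in knockout tumors of NSG mice, from 15 counts in clone 54. In Balb/c mice it was at 6.37 and 6.999 CPM in wild-type and 10.2 and 7.95 CPM in knockout tumors. The wild-type libraries of the hosts overlapped, and the knockout libraries were far apart. The host difference was 0.03 with a 95% interval from -0.70 to 0.76 in wild-type tumors (edgeR adjusted p = 0.945, with -0.12 under total-count scaling and -0.24 without the vCas9 NSG library), and 2.21 ± 0.35 in knockout tumors (adjusted p = 0.00314). The ligand gene Xcl1, made by NK and CD8 T cells, had 0 counts in every NSG library. Against a floor of 3 counts per library, Xcl1 was at least 8.74-fold higher in wild-type tumors of Balb/c mice, and for knockout tumors the bound was at least 15.4-fold higher.

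Clec9a, a receptor for dead cells (chr6:129408862-129424763, plus strand), was at 2.22 and 2.32 CPM in wild-type and 0.963 and 2.59 CPM in knockout tumors of NSG mice, the third value from 9 counts. Its Balb/c levels were 5.86, 6.86, 6.24 and 6.05 CPM, a narrow range above every NSG library. The log2 fold change was 1.49 ± 0.42 (edgeR adjusted p = 0.0325) in wild-type and 1.78 ± 0.44 (adjusted p = 0.0185) in knockout tumors. Both calls were fragile: the first was lost without either library of either wild-type group, with adjusted p from 0.1 to 0.153, and under total-count scaling (0.0528). The second was lost without NSG clone 54, where it was 1.25 (adjusted p = 0.0654), and with only the compared groups fitted (0.0787), and it was 2.66 without NSG clone 69. Its exons share 184 bases with Clec1b on the same strand, so its reads there are uncertain.

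Batf3, a cDC1 transcription factor (chr1:191097847-191108945, plus strand), was at 2.29 and 1.99 CPM in wild-type and 1.61 and 1.39 CPM in knockout tumors of NSG mice. In Balb/c mice it was at 1.78 and 4.16 CPM in wild-type tumors, and at 13.1 and 5.84 CPM in knockout tumors. The Balb/c libraries of either status were more spread than the NSG libraries. Its host difference was 0.48 ± 0.53 in wild-type tumors (edgeR adjusted p = 0.501). It turned to -0.19 without the vCas9 Balb/c library (adjusted p = 0.851) and was 0.95 without the parental one (0.266). The host difference of Batf3 was 2.66 ± 0.55 in knockout tumors (adjusted p = 0.00966), a call lost without NSG clone 69 (adjusted p = 0.0672), and 1.93 without Balb/c clone 54.

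Irf8, needed by cDC1 and plasmacytoid cells (chr8:120736358-120756694, plus strand), was at 47.9 and 54.8 CPM in wild-type and 23.5 and 45.4 CPM in knockout tumors of NSG mice. Its Balb/c levels were 109, 118, 238 and 144 CPM, above every NSG library. The log2 fold change was 1.14 ± 0.33 (edgeR adjusted p = 0.0352) in wild-type and 2.47 ± 0.35 (adjusted p = 0.00217) in knockout tumors. The wild-type call was lost without any 1 of the 4 wild-type libraries, with adjusted p from 0.109 to 0.175, and under total-count scaling (0.0652).

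Cd209a, a C-type lectin of cDC2 and monocyte-derived dendritic cells (chr8:3743397-3748984, minus strand), was at 2.91 and 2.07 CPM in wild-type and 5.24 and 5.27 CPM in knockout tumors of NSG mice. The Balb/c levels were 13.8 and 11.1 CPM in wild-type and 39.7 and 30.6 CPM in knockout tumors. The 4 groups did not overlap, NSG tumors being below Balb/c tumors and, within a host, wild type below knockout. The host difference was 2.31 ± 0.27 (edgeR adjusted p = 0.00202) in wild-type and 2.74 ± 0.26 (adjusted p = 0.00055) in knockout tumors.

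Siglech, an inhibitory receptor of plasmacytoid cells (chr7:55768178-55778925, plus strand), was at 7.34 and 4.39 CPM in wild-type and 1.28 and 3.28 CPM in knockout tumors of NSG mice, the third value from 12 counts. The Balb/c levels of Siglech were 30.9 and 11.9 CPM in wild-type and 29.1 and 23.3 CPM in knockout tumors. The wild-type pair in Balb/c was more spread than the knockout pair, yet both lay above all NSG libraries. The log2 fold change was 1.86 ± 0.53 (edgeR adjusted p = 0.0324) in wild-type and 3.51 ± 0.59 (adjusted p = 0.00401) in knockout tumors. The first was lost without the parental NSG library (adjusted p = 0.0965), without the vCas9 NSG library (0.176) and without the parental Balb/c library, where it was 1.01 (0.207). It was 2.46 without the vCas9 Balb/c library, and the knockout value was 4.34 without NSG clone 69.

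Fscn1, the gene of fascin (chr5:142960343-142973185, plus strand), went the other way. It was at 140 and 137 CPM in wild-type and 98.8 and 148 CPM in knockout tumors of NSG mice, and at 63.7, 44.4, 44.1 and 27.7 CPM in Balb/c mice. Every Balb/c library was below every NSG library. Fscn1 fell by 1.36 on the log2 scale in wild-type tumors (SE 0.30, edgeR adjusted p = 0.0141) and by 1.78 in knockout tumors (SE 0.30, adjusted p = 0.00411). The wild-type call was lost without the parental NSG (adjusted p = 0.0778), vCas9 NSG (0.0664) or vCas9 Balb/c library (0.107). The summed level of 6 epithelial genes, which mark the tumor cells, was 1010, 1220, 2350 and 1720 CPM in NSG and 655, 1530, 569 and 2850 CPM in Balb/c, and the part of tumor cells in the Fscn1 difference was not tested.

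**Figure D2:**
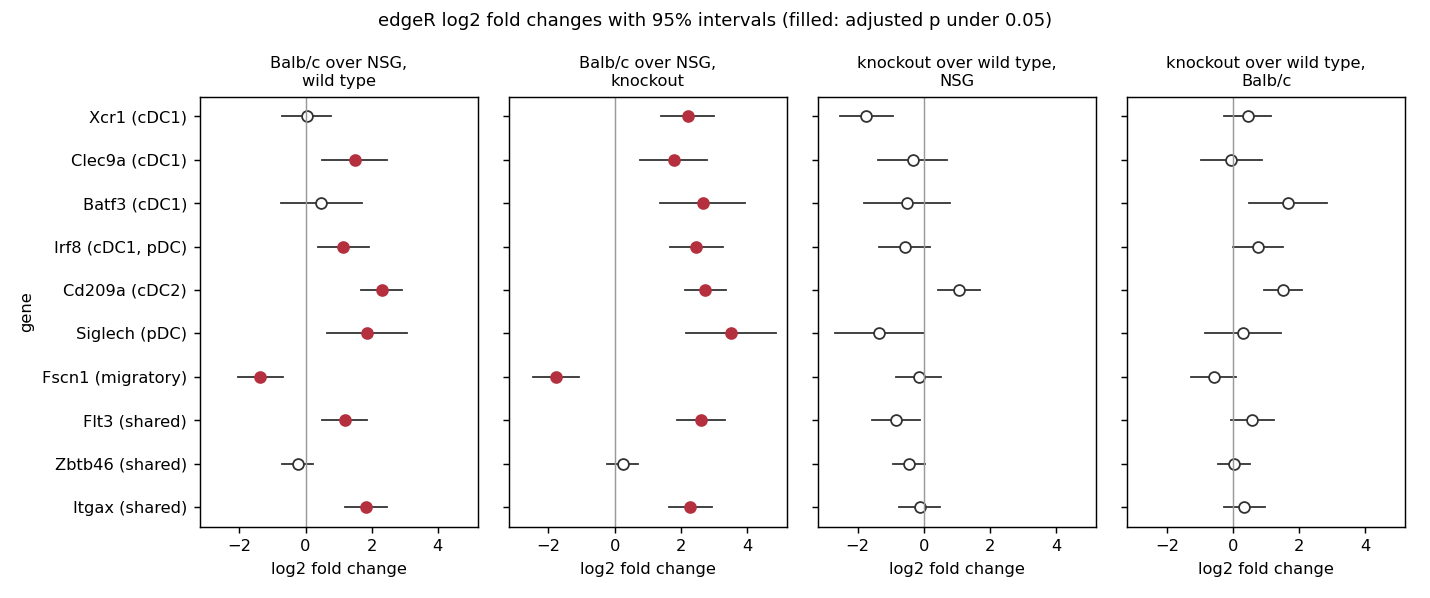
Log2 fold changes (horizontal axis) of the 10 genes with 95% intervals, from edgeR over 2 against 2 libraries, for both host comparisons and both knockout comparisons; filled points passed adjusted p under 0.05. The host comparisons hold 7 and 9 filled points, with Fscn1 to the left, and the knockout comparisons hold none.

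Per kilobase of exon, which allows levels of different genes to be set side by side, Fscn1 was the highest of the 10 genes in NSG tumors, at 45.9 ± 0.823 CPM per kb in wild-type and 41.0 ± 11.7 CPM per kb in knockout tumors (SD, n = 2). Itgax was the highest in Balb/c tumors, at 56.7 ± 8.79 and 71.9 ± 18.6 CPM per kb. Clec9a was the lowest in NSG wild-type tumors, at 0.689 ± 0.0222 CPM per kb. Xcr1 had the lowest mean in NSG knockout tumors, at 0.437 ± 0.108 CPM per kb. Flt3, at 0.466 ± 0.0467, and Clec9a, at 0.539 ± 0.348 CPM per kb, did not differ from it beyond their spread. Xcr1 was the lowest in neither library of this group. Clec9a (0.292) was below Xcr1 (0.360) in clone 54, and Flt3 (0.499) was below Xcr1 (0.514) in clone 69. Zbtb46 was the lowest in both Balb/c groups, at 1.33 ± 0.0956 and 1.36 ± 0.117 CPM per kb. Some neighbours in this order did not differ beyond their spread, such as Clec9a at 1.93 ± 0.215, Flt3 at 1.9 ± 0.657 and Batf3 at 1.86 ± 1.05 CPM per kb in Balb/c wild-type tumors. In NSG wild-type tumors Zbtb46, at 1.58 ± 0.086 CPM per kb, and Cd209a, at 1.57 ± 0.374 CPM per kb, stood level.

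Lists of each subset's genes, drawn up by their known roles and holding the 10 genes above among them, were counted in the same way. Their counts stand against 15.3% of all genes called higher and 16.2% lower in wild-type tumors, and 15.7% and 15.4% in knockout tumors. Of the 9 shared conventional dendritic cell genes, 6 rose in Balb/c wild-type tumors, and 6 rose and 1 fell in knockout tumors, with medians of 1.18 and 1.32. Without Flt3, Zbtb46 and Itgax, 4 of 6 rose in wild-type tumors and 4 rose and 1 fell in knockout tumors, with medians of 0.98 and 1.23. Ciita, the master regulator of MHC class II, rose by 2.61 ± 0.38 (edgeR adjusted p = 0.00419) and 2.84 ± 0.38 (0.0017), and Dpp4, a peptidase also made by other cells, fell by 1.39 in knockout tumors (adjusted p = 0.0198). Of 14 cDC1 genes, 5 rose and 1 fell in wild-type and 10 rose and 2 fell in knockout tumors, with medians of 0.46 and 1.93. Itgae, the integrin CD103, rose by 1.77 ± 0.25 (adjusted p = 0.00381) and 2.08 ± 0.26 (0.00145), and the part of T cells in this rise was not tested. The double-stranded RNA sensor Tlr3 fell by 0.99 (0.014) and 0.95 (0.0122). Without the 4 genes already described, 3 of 10 rose and 1 fell in wild-type and 6 rose and 2 fell in knockout tumors, with medians of 0.43 and 1.15. These 4 of 10 called genes in wild-type tumors compare with 31.5% of all genes called in either direction, near the background.

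Of 9 cDC2 genes tested, 4 rose in wild-type and 7 in knockout tumors, with medians of 0.63 and 2.13. Without Cd209a, 3 and 6 of 8 rose, with medians of 0.59 and 1.87. Irf4, a transcription factor of cDC2, rose by 1.81 ± 0.33 (edgeR adjusted p = 0.00765) and 2.13 ± 0.33 (0.0031), and the part of other cells in this rise was not tested. The lectin gene Mgl2, which macrophages also use, was at -0.16 in wild-type tumors (adjusted p = 0.851) and rose by 4.34 ± 0.66 in knockout tumors (0.00281). Of 15 plasmacytoid genes, 6 rose in wild-type tumors, and 9 rose and 1 fell in knockout tumors, with medians of 1.02 and 2.28. Without Siglech, 5 of 14 rose in wild-type tumors and 8 rose and 1 fell in knockout tumors, with medians of 0.98 and 1.93. Spib, a plasmacytoid transcription factor that B cells share, rose by 2.71 ± 0.57 (0.0126) and 2.88 ± 0.64 (0.0123), while Tcf4, the lineage regulator that other cells express too, fell by 0.86 in knockout tumors (0.0163).

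Of 19 migratory or mature dendritic cell genes tested, 6 rose and 1 fell in wild-type tumors, and 13 rose and 3 fell in knockout tumors, with medians of 0.68 and 1.88. Fscn1 was the single one that fell in wild-type tumors. Without it 6 of 18 rose in wild-type tumors and 13 rose and 2 fell in knockout tumors, with medians of 0.72 and 1.91, where 15.3% and 15.7% of all genes were called higher and 31.5% and 31.1% in either direction. Ccr7, the lymph node homing receptor, was at 32 and 21 CPM in NSG wild-type, 5.46 and 5.47 CPM in NSG knockout, 184 and 54.5 CPM in Balb/c wild-type and 38.7 and 36.5 CPM in Balb/c knockout tumors. It rose by 2.16 ± 0.50 (edgeR adjusted p = 0.0169) and 2.78 ± 0.54 (0.00761), and T and B cells express it too. The costimulatory gene Cd80 rose by 2.32 ± 0.39 (0.00657) and 2.50 ± 0.40 (0.00329), and the PD-L2 gene Pdcd1lg2 by 2.52 ± 0.52 (0.0117) and 6.13 ± 0.62 (0.000642). Fscn1 thus moved against most called genes of the list it belongs to. Of 6 growth factor and attractant genes, 4 rose in either status, and Csf2, the gene of GM-CSF, fell by 1.82 in knockout tumors (0.0124).

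Many calls of these list genes needed every library. In wild-type tumors those of Flt3l, Ciita, Tlr3, Irf4, Spib, Ccr7, Cd80 and Pdcd1lg2 were lost without the parental NSG library, with edgeR adjusted p from 0.0513 to 0.0766. The same genes other than Ciita were lost without the vCas9 NSG library, with adjusted p from 0.0516 to 0.111. Without the parental Balb/c library Ccr7 was at 1.03 (0.0641), Spib at 1.56 (0.0672) and Tlr3 lost its call (0.069), and without the vCas9 one Tlr3 (0.117) and Pdcd1lg2 (0.0565) did. In knockout tumors 1 or more single omissions ended the calls of Dpp4, Tlr3, Spib, Tcf4, Ccr7 and Csf2, with adjusted p from 0.0507 to 0.0997. The block on the cell line ended those of Dpp4 (0.0624) and Tcf4 (0.0708) there, and fitting only the compared groups those of Tlr3 (0.0592) and Tcf4 (0.0819). In wild-type tumors the block left 13.5% of all genes called, against 31.5% without it, and the list counts under it are not given. Itgae in both comparisons and Mgl2 in knockout tumors passed under every alternative tried.

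**Figure D3:**
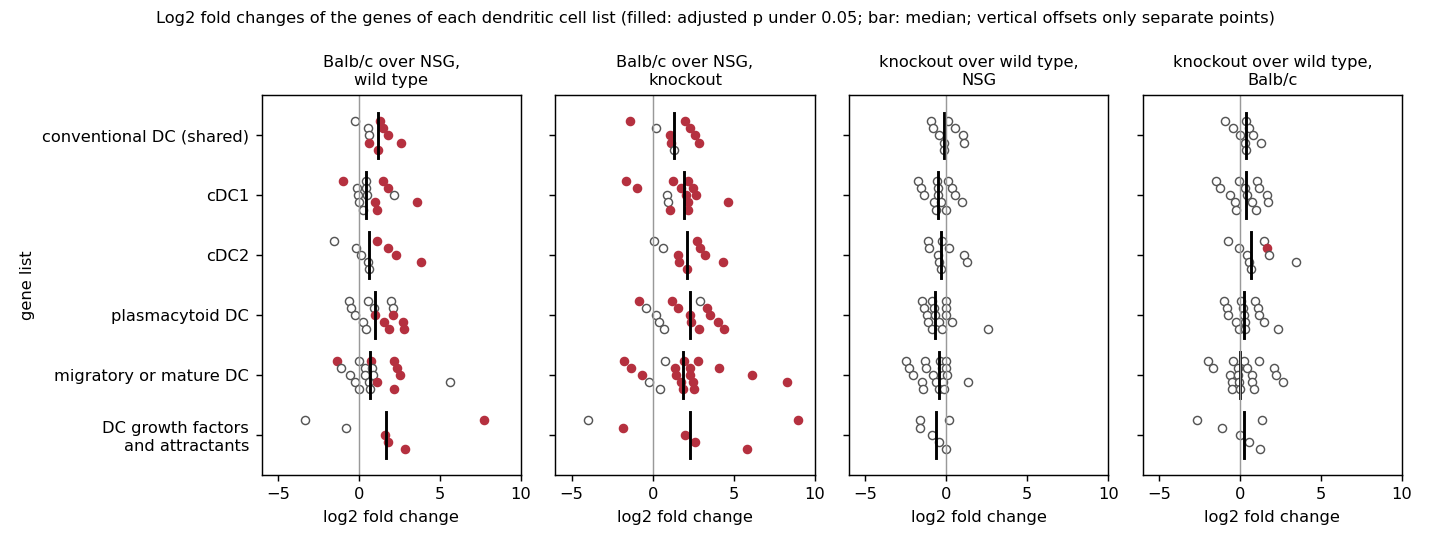
Log2 fold changes (horizontal axis) of the genes of 6 dendritic cell lists in the host and knockout comparisons; each point is a gene, filled where the edgeR adjusted p was under 0.05, and the bar is the list's median. Host medians run from 0.46 to 2.31, and 1 filled point, Clec10a, stands in the knockout comparisons.

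Genes of other immune cells were counted over the same host comparisons. The common leukocyte gene Ptprc rose by 2.21 ± 0.25 in wild-type (edgeR adjusted p = 0.00168) and 1.97 ± 0.24 in knockout tumors (0.00134). All 7 T cell genes rose in both comparisons. Of 8 B cell genes, 8 rose in wild-type and 3 in knockout tumors. The B cell list summed to 4.16 to 6.79 CPM in NSG and to 223, 55.6, 53.9 and 32.7 CPM in Balb/c libraries. The parental Balb/c library, at 223 CPM, also had the highest Ccr7, Spib and Siglech levels, and the part of B cells in these levels was not tested. The NK cell list, of whose 6 genes 6 and 5 rose, summed to 1.79 to 9.20 CPM in NSG and 142 to 263 CPM in Balb/c libraries. Of 6 neutrophil genes, 2 rose in wild-type and 1 in knockout tumors, with medians of 2.03 and -0.83, numbers near or below the 31.5% and 31.1% of all genes called in either direction. The neutrophil sums were 1320, 1670, 3070 and 1450 CPM in NSG and 7390, 5750, 518 and 2500 CPM in Balb/c libraries, with Balb/c below NSG for clone 54 alone of the 4 lines. Of 12 macrophage and monocyte genes, 4 rose and 2 fell in wild-type tumors and 9 rose in knockout tumors, against the same shares. The part of these cells in the differences of Itgax, Irf8 and Batf3 was not tested.

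Counts were also set against Ptprc counts of the same library, a description without a test. Since Ptprc itself rose by 2.21 and 1.97 on the log2 scale, this scale lowers every gene in Balb/c by about that much. In wild-type tumors 8 of the 10 genes were lower in both Balb/c than in both NSG libraries, against 90.8% of all genes, 0 were higher, against 3.11%, and 2 (Cd209a and Siglech) overlapped. Flt3 had 12.6 and 11.2 counts per 1000 Ptprc counts in NSG and 6.75 and 4.83 in Balb/c wild-type tumors. Itgax had 171 and 185 against 112 and 164, Clec9a 5.04 and 5.42 against 2.71 and 3.74, and Irf8 109 and 128 against 50.2 and 64.4. In knockout tumors 3 genes (Flt3, Cd209a and Siglech) were higher in Balb/c, against 3.06% of all genes, 2 (Zbtb46 and Fscn1) lower, against 88.9%, and 5 overlapped. Per 1000 Ptprc counts, Xcr1 had 17.8 and 12.2 counts in NSG wild-type, 3.59 and 6.80 in NSG knockout, 2.94 and 3.81 in Balb/c wild-type and 7.23 and 4.79 in Balb/c knockout tumors. Zbtb46 had 29.3, 32.5, 21.3 and 30.1 counts in NSG and 5.49, 5.85, 8.74 and 6.54 in Balb/c libraries, with no overlap. Cd209a had 6.62 and 4.84 counts in NSG wild-type and 6.36 and 6.04 in Balb/c wild-type tumors, which overlapped. In knockout tumors Cd209a had 11.7 and 15.7 counts in NSG and 28.3 and 18.4 in Balb/c mice, which did not.

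**Figure D4:**
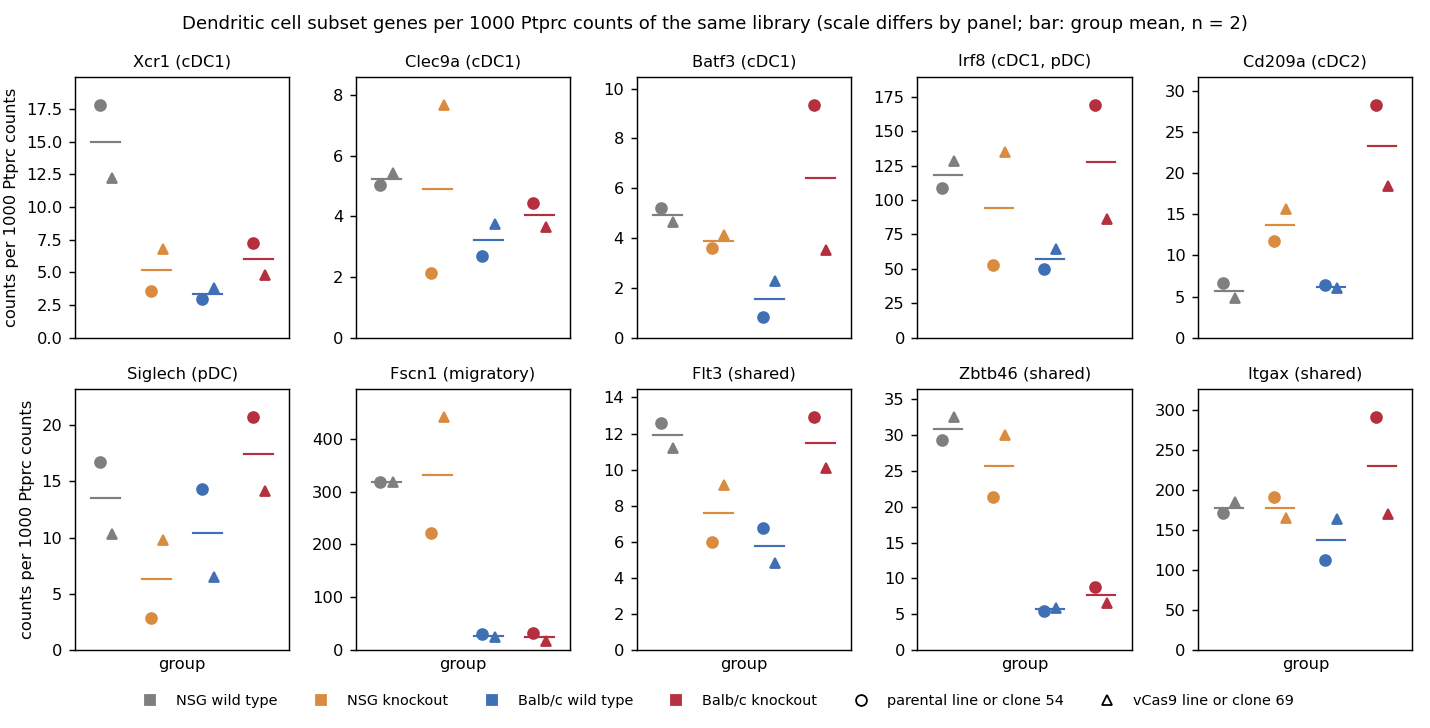
Counts of each dendritic cell gene per 1000 Ptprc counts of the same library (vertical axis from 0, scale differs by panel), by group; points are libraries, circles the parental line or clone 54 and triangles vCas9 or clone 69, and bars are means of 2. Zbtb46 and Fscn1 are lower in the 4 Balb/c libraries, and Cd209a is highest in the Balb/c knockout pair.

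The question of the knockout comparison was whether loss of CD95 in the tumor cells went with other levels of these genes. In NSG mice none of the 10 genes passed the edgeR test, against 0.0131% of all genes, and DESeq2 called 1, Xcr1, against 2.41% of all genes. At an unadjusted p under 0.05 there were 4, against 14% of all genes. In both knockout libraries 6 genes (Flt3, Zbtb46, Xcr1, Batf3, Irf8 and Siglech) were lower than in both wild-type libraries, against 25.8% of all genes, and 1 (Cd209a) was higher, against 26.7%. Xcr1 had the largest difference, -1.74 with a 95% interval from -2.54 to -0.94 (edgeR adjusted p = 0.167, DESeq2 adjusted p = 0.01). Cd209a was at 1.07 with an interval from 0.43 to 1.71 (adjusted p = 0.229), Siglech at -1.35 (0.355) and Flt3 at -0.84 (0.309). The Siglech value was -0.85 without clone 54 and -2.19 without clone 69, neither past the test (adjusted p = 0.669 and 0.406). For the other 6 the intervals included 0, and that of Fscn1 ran from -0.83 to 0.51.

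In Balb/c mice none of the 10 genes passed the edgeR test, against 0.176% of all genes, and DESeq2 called 2, Batf3 and Cd209a, against 15% of all genes. At an unadjusted p under 0.05 there were 2, against 30.9% of all genes. In both knockout libraries 5 genes (Flt3, Xcr1, Batf3, Irf8 and Cd209a) were higher than in both wild-type libraries, against 32.9% of all genes, and 1 (Fscn1) was lower, against 29.3%. The Cd209a difference was 1.5 with a 95% interval from 0.94 to 2.07 (edgeR adjusted p = 0.0564), and the Batf3 difference was 1.66 with an interval from 0.49 to 2.84 (0.0831). Without Balb/c clone 69 the edgeR test called 3 genes, Batf3 (2.13, adjusted p = 0.0196), Irf8 (1.07, 0.0462) and Cd209a (1.69, 0.0074), where it called 24.8% of all genes, with the lone clone 54 library assumed to vary like the other groups. Without Balb/c clone 54 none of the 10 was called, against 0.00636% of all genes. Batf3 was then at 0.86 (adjusted p = 0.385) and Irf8 at 0.24 (0.724), against 0.75 for Irf8 with all libraries.

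Among the 72 dendritic cell list genes tested, 1 passed in the knockout comparison of Balb/c mice, or 1.39%, against 0.176% of all genes. It was the lectin gene Clec10a of cDC2 and macrophages. It was at 23.8 and 23.0 CPM in wild-type and 89.2 and 59.7 CPM in knockout tumors, and rose by 1.67 ± 0.22 (edgeR adjusted p = 0.045). The call was lost with only the compared groups fitted (adjusted p = 0.182) and without any 1 library other than Balb/c clone 69, with adjusted p from 0.0773 to 0.302. The value of Clec10a was 1.25 without Balb/c clone 54. In NSG mice Clec10a was at 23.3 and 20.4 CPM in wild-type and 9.63 and 10.2 CPM in knockout tumors, a difference of -1.13 (adjusted p = 0.167, and 0.0105 in DESeq2). None of the 72 genes passed in edgeR in NSG mice, against 0.0131% of all genes. At an unadjusted p under 0.05 there were 26 of the 72 in NSG mice, against 14% of all genes, and 28 in Balb/c mice, against 30.9%. DESeq2 called 12 and 19 of them, against 2.41% and 15% of all genes. The summed level of 12 macrophage and monocyte genes was 4270 and 4180 CPM in wild-type and 2340 and 2810 CPM in knockout tumors of NSG mice, and 3420, 4060, 12500 and 6110 CPM in Balb/c mice. That list thus stood highest in Balb/c clone 54. The same library had the highest Flt3, Xcr1, Batf3, Irf8, Cd209a and Itgax levels, and the list's part in those levels was not tested. Zbtb46, Clec9a, Siglech and Fscn1 stood highest in other libraries.

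Flt3, Xcr1, Batf3 and Irf8 were lower in both knockout than in both wild-type libraries of NSG mice and higher in both of Balb/c mice. Of all genes, 16.3% were apart in both hosts and in opposite directions. The difference between the hosts in the knockout effect was 2.18 ± 0.47 for Xcr1 (edgeR adjusted p = 0.0893), 1.42 ± 0.42 for Flt3 (0.128), 2.18 ± 0.76 for Batf3 (0.16) and 1.32 ± 0.47 for Irf8 (0.163). None of the 10 genes passed this test, as for 0% of all genes. DESeq2 called 1, Xcr1 (adjusted p = 0.0144), against 6.9% of all genes. At an unadjusted p under 0.05 there were 4, against 22.5% of all genes. Without Balb/c clone 69, 3 passed in edgeR, Xcr1 (adjusted p = 0.0245), Batf3 (0.0414) and Irf8 (0.0425), where 15.1% of all genes passed. Without Balb/c clone 54 none of the 10 passed, against 0.00636% of all genes, and the difference was 1.36 for Batf3 (adjusted p = 0.363) and 0.80 for Irf8 (0.376). For Cd209a, higher in the knockout pair of both hosts, the difference of effects was 0.44 with a 95% interval from -0.42 to 1.29 (adjusted p = 0.512).

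The balance between subset genes within a library was described by the log2 ratio of their counts. The cDC1 sum of Xcr1, Clec9a and Batf3 mixes genes of different length in shares that differ between libraries, so each ratio was also taken per kilobase of exon, an alternative chosen after seeing the data. Cd209a over the cDC1 sum was at -2.08 and -2.20 in NSG wild-type and 0.33 and -0.25 in NSG knockout tumors. The Balb/c values were -0.03 and -0.70 in wild-type and 0.43 and 0.63 in knockout tumors. The NSG wild-type pair stood apart below, and in either host the knockout pair was above the wild-type pair. Per kb the values were -1.07, -1.25, 1 and 0.62 in NSG and 1.01, 0.16, 1.02 and 1.41 in Balb/c libraries, which left the parental line and clone 54 nearly level in Balb/c mice.

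Siglech over the cDC1 sum was at -0.75, -1.12, -1.70 and -0.93 in NSG and 1.14, -0.60, -0.02 and 0.23 in Balb/c libraries, with the CD95 groups overlapping in both. The hosts were apart on this scale but not per kb, where the parental NSG and the vCas9 Balb/c library were both at -0.83. Fscn1 over the cDC1 sum was at 3.51 and 3.84 in NSG wild-type, 4.56 and 4.57 in NSG knockout, 2.18 and 1.30 in Balb/c wild-type and 0.58 and 0.48 in Balb/c knockout tumors. Per kb these values were 3.59, 3.86, 4.31 and 4.51 in NSG and 2.29, 1.23, 0.24 and 0.34 in Balb/c libraries. On both scales the CD95 groups were apart in each host, with the knockout pair above in NSG and below in Balb/c mice.

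**Figure D5:**
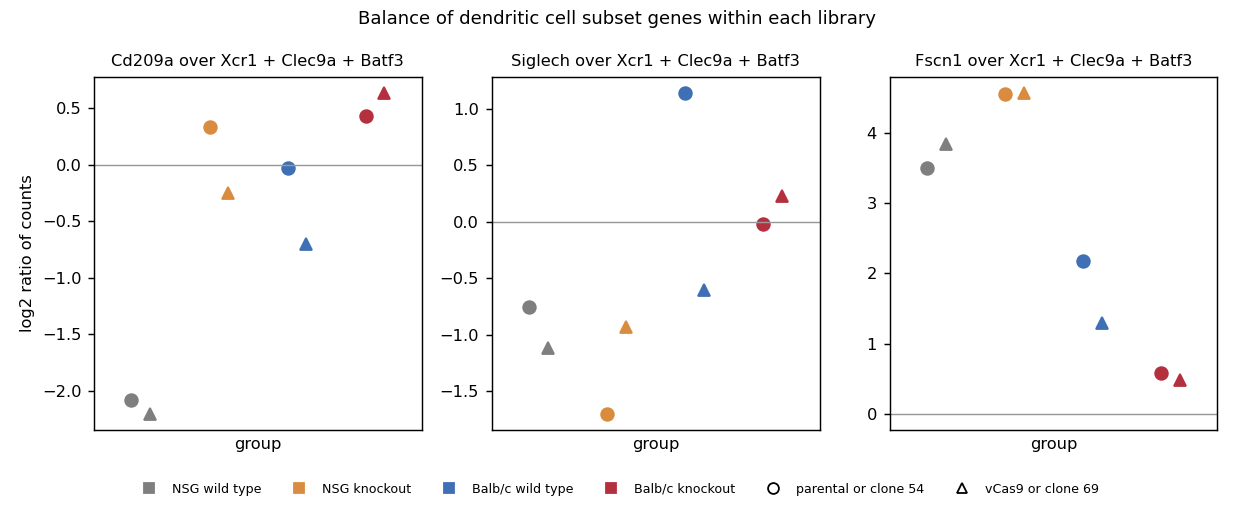
Log2 ratio of counts, not scaled by gene length (vertical axis), of Cd209a, Siglech and Fscn1 over the sum of Xcr1, Clec9a and Batf3 in each library, by group; circles are the parental line or clone 54 and triangles vCas9 or clone 69. The NSG wild-type pair is lowest for Cd209a, at -2.08 and -2.20, and the Balb/c knockout pair is lowest for Fscn1, at 0.58 and 0.48.

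The genes most like each subset lead were those with the highest Pearson r of log2 CPM over the 8 libraries, given as a description. For Xcr1 they were Lemd2 (0.989), Mcoln1 (0.987) and Vps11 (0.986). Those of Cd209a were Vhl (0.994), Sft2d2 (0.993) and Klf8 (0.989). For Siglech they were Cpne7 (0.99), Gtf2a1 (0.986) and Klk1 (0.982), of which Klk1 is also on the plasmacytoid list and Cpne7 had at most 1.16 CPM. For Fscn1 they were Kcnk2 (0.997), Angptl2 (0.995) and Foxm1 (0.994). The libraries share their host and line, and these were the highest of 15310 genes.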

How the data were processed

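The authors deposited raw counts per Ensembl gene, 1 file for each library. Per the submitters' processing notes, cutadapt 1.13, STAR, HTSeq 0.6.1p1 and DESeq2 were used, with the builds mm10 and hg19, and the strand setting and annotation are not given in the sources used here. Positions are from GENCODE on GRCm38, exon lengths are the union of a gene's exons, and start windows are from RefSeq on GRCm38.p6.

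The counts were tested with edgeR 4.0.16 in R 4.3.3 (TMM, filterByExpr, quasi-likelihood test, 4 group means, all 8 libraries, 4 residual degrees of freedom, common coefficient of variation 0.244), adjusted by Benjamini and Hochberg over 15310 genes at 0.05. DESeq2 1.42.0, RLE factors, total-count scaling, other filters, omitted libraries and a cell line block were alternatives. The test was also run on simulated counts, whose outcome is not given and on which no result here rests. The 10 genes, the lists and the tests were chosen with earlier results of these data known. List genes are named only where they passed or stand first in their list, with at most 5 a list, and Fas as a check of the labels. Not every list gene that passed is named, and those named are not always the largest changes of their list. Counting error from PCR reads is a lower limit.

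Each line was grown in both hosts, which pairs libraries across hosts. The line difference correlated across genes between hosts by 0.09 in wild-type and -0.35 in knockout tumors.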

Additional observations from a re-analysis of the deposited data

Results flagged for a closer look

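For 4 genes every knockout library was lower than every wild-type library in NSG mice and higher in Balb/c mice, and 16.3% of all genes tested were likewise apart in both hosts and in opposite directions. The knockout log2 fold change in Balb/c minus that in NSG was 1.42 for Flt3, 2.18 for Xcr1, 2.18 for Batf3 and 1.32 for Irf8. The edgeR test of this difference did not pass for any of them, with adjusted p of 0.128, 0.0893, 0.16 and 0.163. Groups of 2 libraries allow no test for single libraries that stand apart.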

How the results depend on the processing

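In knockout tumors the host calls of the 10 genes held widely: between 8 and 9 passed under every alternative and omitted library tried, and no direction changed. The wild-type host calls were less firm, with 7 passing, 1 to 7 when 1 library was left out, 5 under total-count scaling and 2 where lines formed a replicate block. Genes of all kinds called in that comparison numbered 4825, from 858 to 6361 with 1 library left out and 2073 with the block. In knockout tumors they numbered 4757, from 2461 to 4640 with 1 library left out, 2450 when only the compared groups were fitted and 2878 with the block. The block could not be fitted within a host, where the lines differ between the CD95 groups, and it called none of the 10 genes in the difference of knockout effects.

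In the knockout comparison within NSG mice 2 genes of all kinds passed, 0 to 1 with 1 library left out, 339 in DESeq2, 133 without a filter on low counts and 1 with only the compared groups; of the 10 genes DESeq2 called 1. Within Balb/c mice 27 passed, from 0 to 3886 with 1 library left out, 2161 in DESeq2, 94 with RLE factors, 1774 without a filter and 0 with only the compared groups. Of the 10 genes 2 passed in DESeq2, 2 without a filter and 0 to 3 with 1 library left out. For the difference of knockout effects 0 genes passed, 0 to 2370 with 1 library left out, 968 in DESeq2 and 674 without a filter; of the 10 genes 1 passed in either and 0 to 3 with 1 library left out. A crossed pairing of the clones, chosen after seeing the data, called 307 genes, 1 of them among the 10. The cause of these shifts was not tested.

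Small log2 fold changes changed sign. The wild-type host value of Xcr1 was -0.12 under total-count scaling and from -0.24 to 0.35 with 1 library left out, and that of Batf3 from -0.19 to 0.95. The NSG knockout values with 1 library left out ran from -0.47 to 0.14 for Itgax, -1.23 to 0.19 for Clec9a and -0.49 to 0.10 for Fscn1. The Balb/c knockout value of Zbtb46 was -0.05 in DESeq2, -0.06 with RLE factors, -0.03 without a filter and -0.16 to 0.13 with 1 library left out, that of Itgax from -0.05 to 0.59 and that of Siglech from -0.32 to 1.14. The Clec9a difference of effects ran from -0.23 to 1.19. Total-count scaling moved the median of all genes from -0.08 to -0.24 in the wild-type and from 0.02 to -0.17 in the knockout host comparison, and the share of calls that were higher from 48.6% to 36.5% and from 50.5% to 37.3%. Counts as low as 9 per library in NSG tumors limit what can be said of Clec9a, Batf3, Xcr1 and Siglech there.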
